A study of Mus musculus with 91 samples.

Results

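The miR-302/miR-367 cluster is a run of 5 microRNA (miRNA) hairpins that is transcribed as 1 unit in pluripotent cells. The 7 mature miRNAs described here, mmu-miR-302a-3p, mmu-miR-302a-5p, mmu-miR-302b-3p, mmu-miR-302b-5p, mmu-miR-302c-3p, mmu-miR-302d-3p and mmu-miR-367-3p (the prefix for mouse is left out from here on), were chosen by name, as the arms that represent the cluster among the 1504 mature miRNAs of the count table. They were followed over 91 mouse libraries in 26 groups, made by CAS-seq, a small RNA sequencing method for very small inputs in which Cas9 cuts away unwanted adapter products. The remaining 3 arms of the same hairpins, miR-302c-5p, miR-302d-5p and miR-367-5p, are given beside them.

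The libraries came from natural embryos at embryonic day (E) 6.5 and E7.5, from semi-cloned (SC) embryos and from androgenetic haploid embryonic stem cells (AG-haESCs). Natural embryos came from B6D2F1 females mated to *Oct4-EGFP* males, and were divided with a needle into epiblast (Epi), the tissue that forms the body of the embryo, and extraembryonic ectoderm (Exe), which contributes to the placenta. Besides control embryos there were mutants that lost *Dnmt1* (*Dnmt1*-KO), both *Dnmt3a* and *Dnmt3b* (*Dnmt3a/3b*-DKO) or all 3 genes (*Dnmt*-null), which gives 4 genotypes. The mutants were made in the zygote by a base editor that writes stop codons, so each mutant embryo was edited on its own. There were 4 libraries in each of these 16 groups, except for 3 in control and *Dnmt*-null Epi at E7.5. AG-haESCs carry a sperm genome and were grown with LIF and 2 inhibitors of differentiation signals. The groups were WT, O48, a parental line with both the *H19* and *IG* differentially methylated regions deleted, Mir-6KO, made from such cells by deleting 6 miRNAs, and 408, a line that the labels do not identify and that was not compared with the others. Gene-modified lines were each grown from a single cell. SC embryos were made by injecting such cells into oocytes. At E6.5 they were WT, *Dnmt*-null (from WT cells, edited as above), DKO (from cells without the *H19* and *IG* regions, not to be confused with *Dnmt3a/3b*-DKO) and DKO;*Dnmt*-null, and at E7.5 they were control (from DKO cells) and Mir-6KO;*Dnmt*-null. Each SC and AG-haESC group had 3 libraries, except for 2 of AG-haESC Mir-6KO. The labels call the SC samples embryos. At E6.5 those of the WT, *Dnmt*-null and DKO groups were of epiblast per the study's figure legends, and for the other SC groups the tissue is not given in the sources used here. How many embryos a library holds is not given in the sources used here, and nothing says that libraries of a group came from separate litters or cultures, so p-values measure the spread between these libraries, which may be partly technical.

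A miRNA acts by pairing its seed, bases 2 to 8, with sites in messenger RNAs, which lowers the output of those messengers. The miR-302 family and the miR-290-295 cluster are known as the 2 main miRNA groups of mouse pluripotent cells. The miR-290-295 cluster marks the naive state of the early embryo and of embryonic stem cells, and miR-302/miR-367 marks the primed state of the epiblast after implantation. Their shared seed is known to aid the cell cycle and to restrain early differentiation.

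In the reference genome (GRCm38), the 5 hairpins lie on the plus strand of chromosome 3, within 580 bases from 127545228 to 127545807, in the order *Mir302b*, *Mir302c*, *Mir302a*, *Mir302d* and *Mir367*. The whole run lies in intron 8 of a transcript of *Larp7* with 13 exons. *Larp7* encodes a La-related RNA-binding protein and lies on the minus strand, so the hairpins are antisense to it and touch none of its exons. RefSeq gave the mature sequence of 6 of the 7 members, and miR-302a-3p is named only. They are shown from 5′ to 3′ with the seed in capitals, because the seed shows which members could share targets.
miR-302b-3p: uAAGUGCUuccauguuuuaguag
miR-302d-3p: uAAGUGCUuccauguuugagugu
miR-302c-3p: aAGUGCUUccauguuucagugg
miR-302b-5p: aCUUUAACaugggaaugcuuucu
miR-302a-5p: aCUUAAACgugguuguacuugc
miR-367-3p: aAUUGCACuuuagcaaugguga

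miR-302b-3p (127545275 to 127545297) and miR-302d-3p (127545665 to 127545687) had the same seed. miR-302c-3p had the same 6-base core, AGUGCU, starting at base 2 where the others have it at base 3. With miR-302c-3p, which starts a base later, aligned on that core, miR-302b-3p differed from it at U18C and A22G. It differed from miR-302d-3p at U18G, A22G and G23U. The base of miR-302b-3p stands first, and positions are counted from its 5′ end. A read shortened by 2 bases, the most that the counting allowed, still holds the first base that differs. How many mismatches were allowed is not given in the sources used here, so the division of counts among such near-identical sequences is uncertain. The seed of the 3p arms is not specific to this locus. Of the other miRNAs in the table with a RefSeq sequence, 3 had it, all from the miR-290-295 cluster on chromosome 7, and they are shown with the capitals in the same place.
miR-291a-3p: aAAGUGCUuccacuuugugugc
miR-294-3p: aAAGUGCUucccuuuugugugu
miR-295-3p: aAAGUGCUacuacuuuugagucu

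miR-367-3p is of another family. Its seed was shared with 5 other miRNAs of the table, miR-25-3p, miR-32-5p, miR-363-3p, miR-92a-3p and miR-92b-3p, of which miR-92a-3p had the highest mean level. The sequence of the latter is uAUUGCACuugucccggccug.

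The hairpin of *Mir302b* shows how both arms arise from 1 precursor, with the arms in capitals and the loop between them.
Mir302b: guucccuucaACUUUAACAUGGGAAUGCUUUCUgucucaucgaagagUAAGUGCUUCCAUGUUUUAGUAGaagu

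Totals ranged from 45242 to 26970637 counts per library, and the lowest belonged to *Dnmt*-null Epi at E6.5 (45242 to 123169, against 281158 to 458837 in control Epi). Levels are in CPM, the counts of a miRNA scaled to a common total per library. Several libraries stood apart. Both libraries labelled AG-haESC Mir-6KO had 25.9% and 28.9% of their counts on the members, where the other 9 AG-haESC libraries had 0.122 to 0.506%. Over 567 miRNAs without the members, their log2 CPM correlated with the mean of E7.5 SC control embryos at 0.893 and 0.874, and with AG-haESC WT at 0.697 and 0.678. They go against their label and were used in no comparison. The library E6.5 SC WT replicate 3 had 2.69% on the members, with a Wilson 95% interval of 2.63 to 2.75%, where the other WT libraries had 23.2% and 20.9%. Its profile correlated with the mean of SC DKO embryos at 0.763, against 0.940 and 0.928 for the others, and with AG-haESC WT at 0.669. The results for the members that rest on it are given with and without it. The library E6.5 Exe *Dnmt1*-KO replicate 4 had 0.617% on the members (0.574 to 0.663%) and 6592 CPM on 6 blood miRNAs. Intervals cover counting error only, since PCR copies are not independent molecules. Trophoblast markers followed the tissue labels. The 8 trophoblast miRNAs of the *Sfmbt2* intron cluster summed to 27456 to 71470 CPM in Exe and 569 to 26466 CPM in Epi.

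The members took 5.39 to 22.6% of all miRNA counts in the 30 Epi libraries and 0.617 to 4.84% in the 32 Exe libraries, so the tissues did not overlap in any genotype or stage. In SC embryos they took 8.47 to 24.2% without the library that stood apart. In AG-haESCs without Mir-6KO they took at most 0.506%. The plot of the share by group shows this order.

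**Figure D1:**
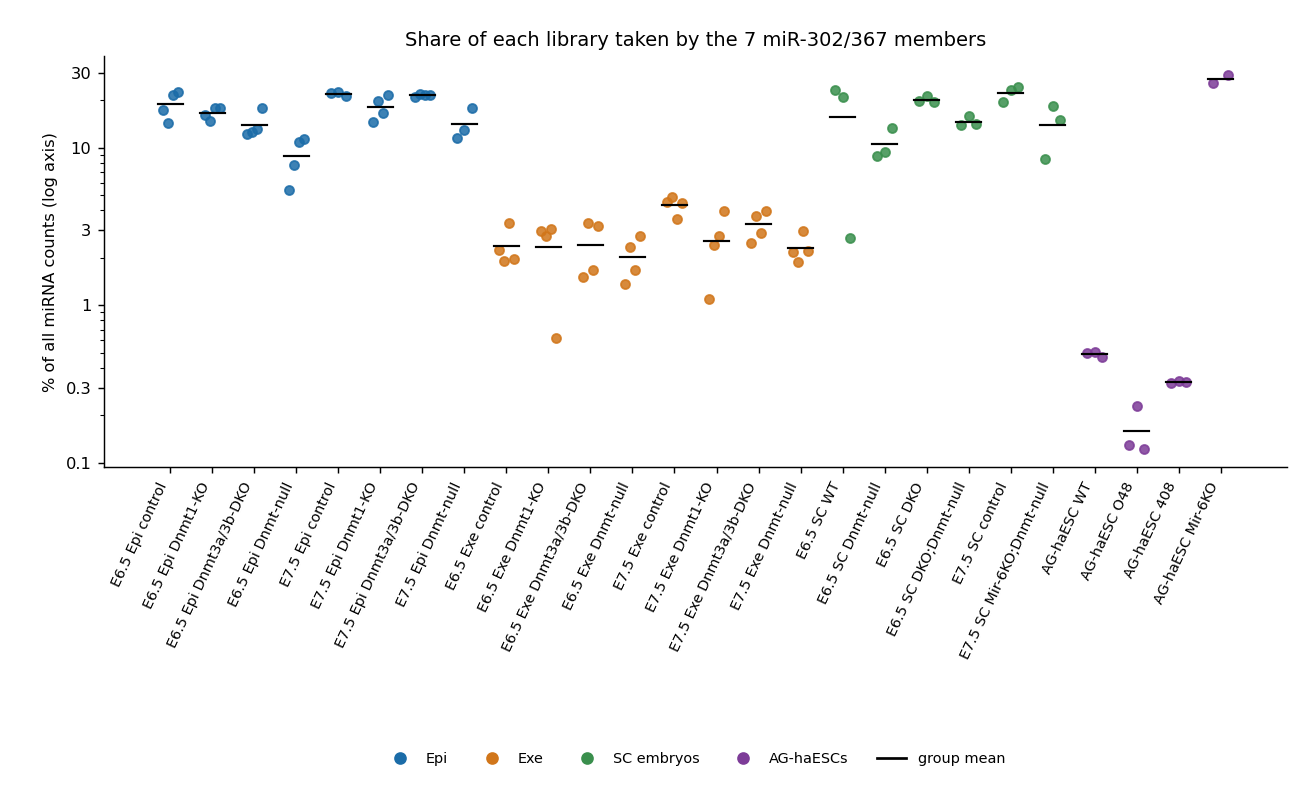
Share of each library's miRNA counts on the 7 members, in percent on a log axis, with 1 point per library coloured by material and a line at the mean of each of the 26 groups. The 30 Epi libraries lie between 5.39 and 22.6%, above all 32 Exe libraries, and AG-haESC WT, 408 and O48 lie lowest, at 0.506% and under. The libraries labelled AG-haESC Mir-6KO lie highest and E6.5 SC WT replicate 3 lies at 2.69%.

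Ordered by their mean, and leaving aside AG-haESC Mir-6KO, the highest groups were E7.5 SC control (22.3% ± 2.53, SD, n = 3), E7.5 Epi control (22.01% ± 0.558, n = 3) and E7.5 Epi *Dnmt3a/3b*-DKO (21.5% ± 0.329, n = 4). From there down to E6.5 Epi *Dnmt*-null (8.85% ± 2.82, n = 4), the libraries of each group overlapped those of its neighbour in the order, among them E6.5 SC WT, whose range of 2.69 to 23.2% includes the library that stood apart. The next group, E7.5 Exe control (4.33% ± 0.577, n = 4), did not overlap it. The Exe groups overlapped one another down to E6.5 Exe *Dnmt*-null (2.03% ± 0.628, n = 4). AG-haESC WT (0.491% ± 0.0191), 408 (0.325% ± 0.00617) and O48 (0.160% ± 0.0588, each n = 3) were each separate from the group above.

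A single arm, miR-302b-3p, made up most of this. It was the most abundant of all miRNAs in 27 of 30 Epi libraries and in 17 of 18 SC libraries, and in 0 of 32 Exe libraries and 0 of the 9 AG-haESC libraries other than Mir-6KO. In Exe it ranked from 3 to 45, and in AG-haESCs from 39 to 71. It held 79.8 to 90.9% of the members' counts in natural embryos. miR-302a-5p came next, with 3.03 to 12.3%, and miR-302d-3p held 1.099 to 3.59%. Counts of different miRNAs compare only roughly, since ligation and PCR do not capture each sequence equally well.

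Detection was not limiting for 6 of the members. miR-302a-3p, miR-302a-5p, miR-302b-3p, miR-302b-5p and miR-302d-3p had more than 3 counts in all 91 libraries, and miR-302c-3p in 90. miR-367-3p was the weak one, over 3 counts in 28 of 30 Epi and 17 of 32 Exe libraries, so its fold changes rest on few reads. Of the other arms, miR-302c-5p and miR-302d-5p passed this limit in 90 and 91 libraries, and miR-367-5p in 13.

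The first comparison asks how the cluster differs between the tissues of control embryos. The members were far higher in Epi at both stages. In E6.5 Epi, miR-302b-3p was at 150359, 122824, 174696 and 187147 CPM, and in E6.5 Exe at 20106, 16444, 29244 and 16743 CPM. The lowest Epi library was above the highest Exe library by a wide margin. miR-302a-5p was at 11848, 11136, 23464 and 21241 CPM in Epi, and at 1019, 1230, 1821 and 1106 CPM in Exe. The mean share of the cluster was 19.0% in Epi and 2.36% in Exe, 8.05-fold apart.

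Counts were tested with edgeR's quasi-likelihood test over all miRNAs, and a miRNA was called with a Benjamini-Hochberg adjusted p under 0.05 and an absolute log2 fold change over 0.5. Unless stated otherwise, a share of all miRNAs beside a count of members is by this rule. At E6.5, 6 of 7 members were called, all higher in Epi, where 22.2% of the 658 miRNAs tested were called in either direction. The median log2 fold change was 3.22 over the members and 0.43 over all miRNAs. The largest was that of miR-302a-5p (3.99 ± 0.39, SE, adjusted p = 5.1e-12), and miR-302b-3p had 3.22 ± 0.33 (adjusted p = 8.9e-11). miR-367-3p had 2.55 ± 0.99 and missed the threshold (adjusted p = 0.053). The libraries of the tissues did not overlap for any of the 7 members. Of single miRNAs, overlap was checked for the members only, here and below, so no share over all miRNAs can be set beside it. With another scaling (RLE) the median of all miRNAs was 0.01, a shift of -0.43, and the same number of members was called.

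At E7.5 the members were again higher in Epi. The estimates of the miR-302 arms were below those at E6.5 and that of miR-367-3p was above, and the difference between stages was not tested. miR-302b-3p was at 198227, 201821 and 190875 CPM in Epi and at 40581, 43517, 31443 and 40086 CPM in Exe. All 7 members were called and higher in Epi, where 26.1% of miRNAs were called, and the median log2 fold change was 2.73 against 0.28 over all miRNAs. miR-367-3p was among them (3.15 ± 1.03, adjusted p = 0.015), at 123, 172 and 218 CPM in Epi and 31.7, 33.9, 7.73 and 28.0 CPM in Exe. Its call was lost when the fit included a replicate block. Leaving out 1 library at a time gave 6 to 7 called members. The share was 5.08-fold higher in Epi. Of the other arms, miR-302c-5p and miR-302d-5p were called and higher in Epi at both stages, with 3.13 ± 0.46 and 3.18 ± 0.41 at E6.5. Lists besides the trophoblast one also separated the tissues. At E6.5 the endoderm (745 to 1768 CPM against 1924 to 4805 CPM) and stroma or decidua (82.8 to 123 CPM against 153 to 684 CPM) lists were lower in Epi. At E7.5 the endothelium list was lower in Epi (267 to 596 CPM against 1351 to 3075 CPM). The remaining cell type lists overlapped. The part of the lists was not tested.

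The 3 miRNAs with the seed of miR-302b-3p did not follow it. None of miR-291a-3p, miR-294-3p and miR-295-3p was called between tissues at E6.5, and 2 were lower in Epi at E7.5. Over the 14 members of the miR-290-295 cluster, 0 were called at E6.5 (median -0.07) and 9 were lower in Epi at E7.5 (median -1.23). Its most abundant member, miR-295-3p, was at 55897 ± 2143 CPM in Epi and 80617 ± 12940 CPM in Exe at E6.5 (SD, n = 4 each), a log2 fold change of -0.25 ± 0.17. The miRNAs with the seed of miR-367-3p were higher in Epi in 4 of 5 cases at each stage. Among them, miR-363-3p reached 3.48 ± 0.35 at E6.5, near the values of the miR-302 arms.

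From E6.5 to E7.5 the levels in Epi did not move past the threshold. None of the 7 members was called by edgeR or by DESeq2, and 1 had an unadjusted p under 0.05 (miR-302a-5p, -0.76 ± 0.38, and 1 member was called without E6.5 replicate 2), where 17.5% of miRNAs were called. miR-302b-3p had 0.42 ± 0.33 (adjusted p = 0.46). For 5 of 7 members the stages overlapped, among them miR-302a-3p at 3060, 2810, 4819 and 5028 CPM at E6.5 and 4534, 4410 and 4734 CPM at E7.5. The 2 without overlap lay in opposite directions. miR-302b-3p was higher at E7.5 (190875 to 201821 CPM, against 122824 to 187147 CPM at E6.5), and miR-302a-5p was lower (8941 to 9494 CPM, against 11136 to 23464 CPM). In the same libraries, 12 of the 14 miR-290-295 miRNAs were lower at E7.5 (median -2.26 against -0.07 over all miRNAs). miR-295-3p had 13871 ± 146 CPM at E7.5 and fell by 1.89 ± 0.20 on the log2 scale. The sum of that cluster went from 151655 to 168311 CPM at E6.5 to 43323 to 44443 CPM at E7.5, so at E7.5 it was well below miR-302b-3p alone. Marker lists of other cell types also separated these Epi libraries. From E6.5 to E7.5, the sum of the trophoblast list went from 5782 to 26466 CPM to 1875 to 2141 CPM, that of the endoderm list from 745 to 1768 CPM to 3459 to 4174 CPM, and that of the stroma or decidua list from 82.8 to 123 CPM to 277 to 413 CPM. Their part in these values was not tested.

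In Exe, 1 of 7 members was called between stages, where 7.29% of miRNAs were called. miR-302a-3p was at 137, 317, 525 and 396 CPM at E6.5 and 961, 930, 734 and 1081 CPM at E7.5 (1.39 ± 0.41, adjusted p = 0.021). It had no overlap between stages, and neither had miR-302b-3p (0.92 ± 0.31), miR-302c-3p (1.21 ± 0.42) and miR-302d-3p (0.68 ± 0.36), which missed the threshold with adjusted p of 0.059, 0.059 and 0.27. The call of miR-302a-3p was lost without E6.5 replicate 1 (adjusted p = 0.089) or replicate 2 (adjusted p = 0.054). Of the cell type lists, endothelium alone was higher at E7.5 without overlap (1351 to 3075 CPM, against 179.0 to 301.8 CPM at E6.5). The others overlapped, and the part of the lists was not tested.

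**Figure D2:**
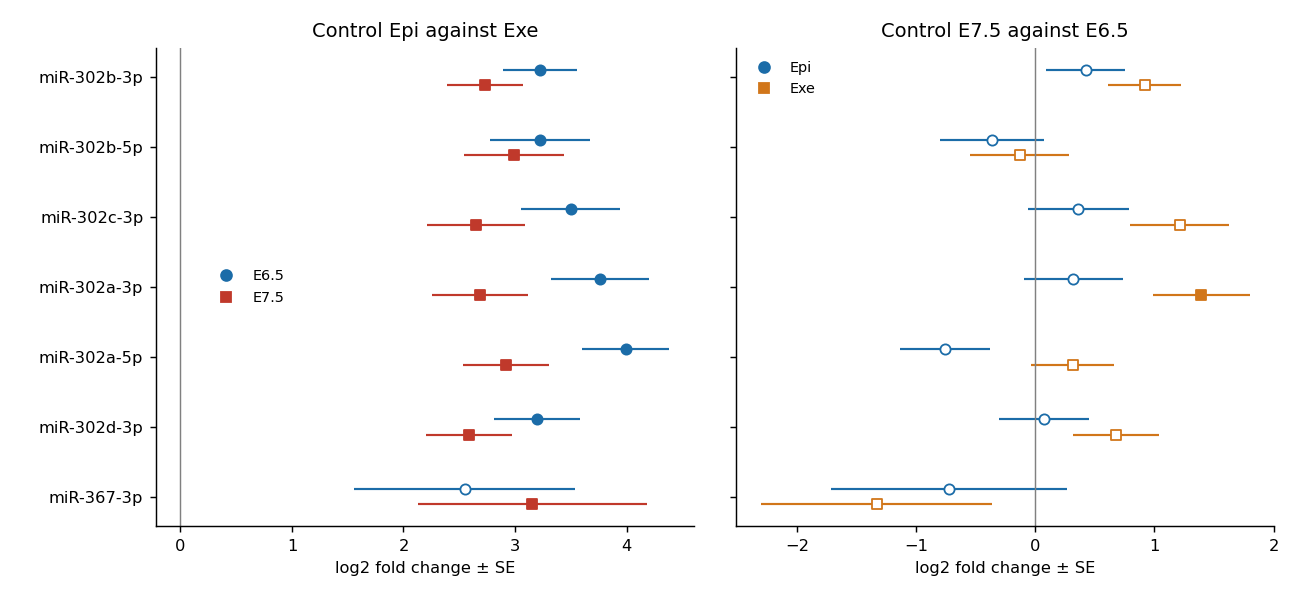
Log2 fold change with its SE for each member, between Epi and Exe of control embryos (left) and between E7.5 and E6.5 (right). Filled symbols were called and open ones were not. On the left all values lie between 2.55 and 3.99, and on the right 1 of 14 is called, miR-302a-3p in Exe at 1.39.

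The second set of comparisons asks what the loss of the DNA methyltransferases does to the cluster in Epi. DNMT1 copies methylation after replication, and DNMT3A and DNMT3B set it anew. The 3 mutants of a stage were compared with the same control libraries, so their values are not independent. At E6.5 the cluster was lower in *Dnmt*-null Epi. The share of the members was 17.3%, 14.4%, 21.6% and 22.6% in controls and 5.39%, 7.74%, 10.8% and 11.4% in *Dnmt*-null Epi, without overlap, and the ratio of the means was 0.466. miR-302b-3p was at 46086, 65034, 89356 and 94943 CPM in *Dnmt*-null Epi, each below the lowest control.

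All 7 members were called and lower, where 12.7% of the 409 miRNAs tested were called. Their median log2 fold change was -1.47 against -0.14 over all miRNAs. miR-302b-3p had -1.24 ± 0.21 (adjusted p = 4.3e-04) and miR-302a-3p had -1.54 ± 0.39 (adjusted p = 0.011). miR-302a-5p was closest to the threshold (-1.04 ± 0.34, adjusted p = 0.044). It was at 4620, 8057, 12107 and 11813 CPM, so it alone of the 7 overlapped the control libraries. miR-367-3p fell by 3.43 ± 0.73 on the log2 scale, but from only 30 to 248 counts per control library to 0, 3, 4 and 4 counts in *Dnmt*-null Epi. At those depths 3 counts correspond to at most 66.3 CPM. The *Dnmt*-null libraries were the shallowest of the tissue, and depth and genotype cannot be told apart. Without the shallowest, replicate 1, 6 of 7 members were called and miR-302b-3p had -1.03 ± 0.18. The trophoblast miRNAs summed to 6414 to 13395 CPM in *Dnmt*-null and 5782 to 26466 CPM in control Epi, an overlapping range. The endoderm list had 1110 to 2952 CPM in *Dnmt*-null and 745 to 1768 CPM in control Epi, and the stroma or decidua list 106 to 995 CPM and 82.8 to 123 CPM, also overlapping. The blood list (53.2 to 420 CPM and 87.2 to 119 CPM) and the endothelium list (0 to 315 CPM and 290 to 328 CPM) overlapped too. Their part in the result was not tested.

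The partial mutants of E6.5 were not separated from controls by the test. *Dnmt1*-KO Epi had 14.7 to 17.9% of counts on the members and *Dnmt3a/3b*-DKO Epi had 12.3 to 17.9%. In *Dnmt1*-KO, 0 of 7 members were called by edgeR and DESeq2, 0 had an unadjusted p under 0.05, and 0.733% of all miRNAs were called. In *Dnmt3a/3b*-DKO, 0 were called by edgeR and 1 by DESeq2, 3 had an unadjusted p under 0.05, and 3.42% of all miRNAs were called. The estimates of the latter were all below 0, with a median of -0.64. miR-302b-3p had -0.46 ± 0.21 and miR-302d-3p had -0.76 ± 0.32.

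The mutants were also compared directly. Against *Dnmt1*-KO Epi, 2 members were lower in *Dnmt*-null Epi, miR-302b-3p (-0.99 ± 0.21, adjusted p = 0.011) and miR-367-3p (-3.50 ± 0.74, adjusted p = 0.010), where 1.96% of miRNAs were called. The libraries did not overlap for any of the 7 members, and all 7 had an unadjusted p under 0.05. DESeq2 called 6. The 1.96% is the share by edgeR, and the shares of all miRNAs that met these other criteria are not given. Against *Dnmt3a/3b*-DKO Epi, 0 members were called by edgeR and 1 by DESeq2, 5 had an unadjusted p under 0.05, and 1.22% of miRNAs were called. miR-302b-3p had -0.78 ± 0.21 (adjusted p = 0.061). The count against *Dnmt1*-KO was 1 without *Dnmt*-null replicate 2 and 4 without replicate 3 or 4, and that against *Dnmt3a/3b*-DKO was 1 without *Dnmt3a/3b*-DKO replicate 2 or *Dnmt*-null replicate 4. In *Dnmt*-null Epi the trophoblast list was above *Dnmt1*-KO without overlap (6414 to 13395 CPM against 3770 to 6195 CPM). The miR-290-295 sum was below *Dnmt1*-KO without overlap (54706 to 115715 CPM against 117812 to 160169 CPM). The other cell type lists overlapped, and against *Dnmt3a/3b*-DKO all of them did. The part of the lists was not tested.

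At E7.5, *Dnmt*-null Epi again had less of the cluster. Its share was 22.2%, 22.5% and 21.4% in controls and 11.6%, 13.0% and 17.9% in *Dnmt*-null Epi, a ratio of means of 0.642. miR-302b-3p was at 100752, 111928 and 156696 CPM. miR-302a-3p was at 1840, 2448 and 2892 CPM, where controls had 4410 to 4734 CPM. The third *Dnmt*-null library was nearest to the controls in both.

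The test called 4 of 7 members, all lower, where 31.3% of the 652 miRNAs tested were called. They were the 3p arms miR-302a-3p (-1.16 ± 0.19, adjusted p = 8.6e-05), miR-302b-3p (-0.90 ± 0.15, adjusted p = 1.4e-04), miR-302c-3p (-1.01 ± 0.20, adjusted p = 6.2e-04) and miR-302d-3p (-0.95 ± 0.25, adjusted p = 0.0073). The median over the members was -0.95 against -0.19 over all miRNAs. The 5p arms were not called, with miR-302a-5p at -0.21 ± 0.17 (adjusted p = 0.40) and miR-302b-5p at -0.33 ± 0.23 (adjusted p = 0.29). Of the other arms, miR-302c-5p (-1.24 ± 0.16) and miR-302d-5p (-0.61 ± 0.19) were called and lower, so not every 5p arm stood aside. miR-367-3p had -1.02 ± 0.42 (adjusted p = 0.066). The trophoblast miRNAs of these libraries summed to 4320 to 8293 CPM in *Dnmt*-null and 1875 to 2141 CPM in control Epi, with Exe at 27456 CPM or more. Other lists were lower without overlap, endoderm at 2334 to 3042 CPM against 3459 to 4174 CPM in controls, stroma or decidua at 85.7 to 160 CPM against 277 to 413 CPM, and endothelium at 156 to 232 CPM against 267 to 596 CPM. The blood list overlapped. The part of these lists in the result was not tested.

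The trophoblast list was also above the controls in both partial mutants at E7.5, at 2753 to 3087 CPM in *Dnmt1*-KO and 2531 to 5352 CPM in *Dnmt3a/3b*-DKO Epi. The endoderm list was above the controls in *Dnmt3a/3b*-DKO Epi (4581 to 5719 CPM against 3459 to 4174 CPM). The other cell type lists overlapped the controls. In *Dnmt1*-KO Epi at E7.5, with shares of 14.7%, 19.8%, 16.7% and 21.5%, miR-302a-3p alone of the members was called (-0.59 ± 0.17, adjusted p = 0.023), where 14.9% of miRNAs were called. miR-302b-3p had -0.49 ± 0.13 with an adjusted p of 0.017, and just missed the fold threshold. The count was 0 without control replicate 1 or 3 or *Dnmt1*-KO replicate 1 or 3, 2 without *Dnmt1*-KO replicate 4 and 3 without replicate 2. In *Dnmt3a/3b*-DKO Epi the shares were 20.99 to 21.8%, next to the controls. None of its members was called by edgeR or DESeq2, 1 had an unadjusted p under 0.05 (miR-302a-3p, -0.38 ± 0.17), and 7.06% of all miRNAs were called. Directly against *Dnmt1*-KO, *Dnmt*-null Epi was lower in 2 members, miR-302c-3p (-0.72 ± 0.19) and miR-302a-3p (-0.57 ± 0.17), with 8.74% of all miRNAs called. Against *Dnmt3a/3b*-DKO it was lower in 3, miR-302b-3p (-0.76 ± 0.14), miR-302c-3p (-0.77 ± 0.19) and miR-302a-3p (-0.78 ± 0.17), with 13.7% called. Leaving out 1 *Dnmt*-null library moved both counts. Against *Dnmt1*-KO the count was 0, 1 and 4 without replicate 1, 2 and 3, and it was also 1 without *Dnmt1*-KO replicate 2 or 4. Against *Dnmt3a/3b*-DKO it was 1 without *Dnmt*-null replicate 1 and 5 without replicate 3. The endoderm list of *Dnmt*-null Epi (2334 to 3042 CPM) was below both mutants without overlap, at 3667 to 4660 CPM in *Dnmt1*-KO and 4581 to 5719 CPM in *Dnmt3a/3b*-DKO. Its trophoblast list (4320 to 8293 CPM) was above *Dnmt1*-KO. Its stroma or decidua list (85.7 to 160 CPM) was below *Dnmt3a/3b*-DKO (338 to 646 CPM). The other cell type lists overlapped. The part of the lists was not tested.

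**Figure D3:**
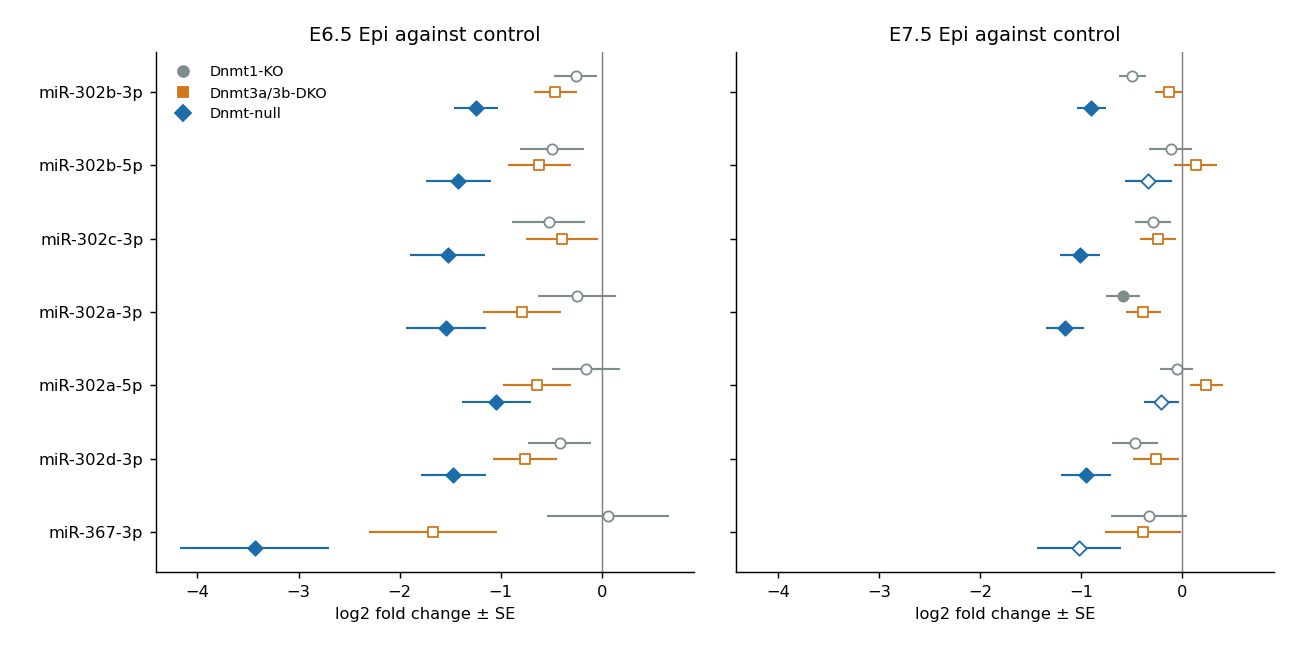
Log2 fold change with its SE of each member in the 3 mutants against control Epi, at E6.5 (left) and E7.5 (right). Filled symbols were called and open ones were not. At E6.5 all 7 *Dnmt*-null values are filled, from -1.04 to -3.43, and at E7.5 the filled ones are the miR-302 3p arms of *Dnmt*-null Epi and miR-302a-3p of *Dnmt1*-KO Epi.

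Whether the effects changed with stage was tested with interaction terms. For each mutant in the order of *Dnmt1*, *Dnmt3a/3b* and triple loss, 0 of 7 members were called by edgeR and DESeq2, where 0.456%, 3.65% and 10.2% of miRNAs were called. Of the members, 0, 0 and 1 had an unadjusted p under 0.05. The change of the *Dnmt*-null effect on miR-302b-3p from E6.5 to E7.5 was 0.51 ± 0.47. The miR-290-295 cluster behaved otherwise in the same test, with 10 of 14 miRNAs called and a higher effect at E7.5 (median 1.98, against 0.57 over all miRNAs and 0.70 over the members). Without *Dnmt*-null replicate 1 of E6.5, 9 were called. Its values against controls were lower in *Dnmt*-null Epi at E6.5 for 5 of 13 tested, and higher at E7.5 for 8 of 14. miR-295-3p had -1.04 ± 0.18 at E6.5 and 0.58 ± 0.15 at E7.5. At E7.5 miR-295-3p and miR-302b-3p, which share a seed, were thus called on opposite sides of the controls, and at E6.5 both were called below them. With RLE scaling the median of all miRNAs in this interaction moved by -0.34.

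In Exe the members were low and few differences were called. At E6.5, 6 members passed the filter on low counts and 0 were called in any of the 3 mutants by edgeR or DESeq2, with 0 at an unadjusted p under 0.05. Of all miRNAs, edgeR called 0% in *Dnmt1*-KO Exe and 0.532% in each of the other mutants. The 0 of 376 in *Dnmt1*-KO compares with 34 at an unadjusted p and 9 by DESeq2. The control shares of 2.24%, 1.92%, 3.33% and 1.96% overlapped those of all 3 mutants. Without the *Dnmt1*-KO library that stood apart, its 6 members were again not called, and their median moved from -0.11 to 0.28.

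At E7.5, the share in Exe was 4.52%, 4.84%, 3.50% and 4.46% in controls and 2.18%, 1.87%, 2.95% and 2.19% in *Dnmt*-null Exe, without overlap. The test called 3 members, all lower, miR-302a-3p (-1.10 ± 0.31, adjusted p = 0.025), miR-302b-3p (-0.92 ± 0.27, adjusted p = 0.034) and miR-302d-3p (-0.89 ± 0.29, adjusted p = 0.048), where 11.2% of miRNAs were called. These calls were near the threshold. All 3 were lost without control replicate 1, 2 or 4 or *Dnmt*-null replicate 1 or 2, each left out alone. Endothelial miRNAs summed to 191 to 2359 CPM in *Dnmt*-null and 1351 to 3075 CPM in control Exe, and their part was not tested. In *Dnmt1*-KO Exe, 0 were called by edgeR and DESeq2 and 2 had an unadjusted p under 0.05 (1 was called without *Dnmt1*-KO replicate 4), with 5.19% of miRNAs called, and in *Dnmt3a/3b*-DKO Exe 0 were called by either tool, 0 had an unadjusted p under 0.05, and 3.02% were called. The effect of the triple loss was not shown to differ between tissues. The interaction called 0 of 7 members at E6.5 (5 at an unadjusted p under 0.05, and 1 called without Exe control replicate 3 or Epi *Dnmt*-null replicate 3) and 0 at E7.5 (0 at an unadjusted p), with 0 by DESeq2 at both stages and 0.456% and 0.608% of all miRNAs called. For miR-302b-3p the difference between tissues was -1.12 ± 0.44 at E6.5 and -0.01 ± 0.47 at E7.5. The median over all miRNAs in these interactions was -0.68 and 0.03, and the former was -0.24 with RLE scaling and -0.13 with DESeq2. Its *Dnmt*-null estimates at E7.5 were nearly the same in Epi and Exe, -0.90 and -0.92. In bulk tissue, fewer cells of a type and less RNA per cell cannot be told apart.

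AG-haESCs and the SC embryos made from them show the cluster in cultured stem cells and after implantation. In WT AG-haESCs, miR-302b-3p was at 3657, 3646 and 3406 CPM, and the miR-290-295 cluster summed to 259813 to 266868 CPM. In E6.5 WT SC embryos miR-302b-3p was at 208632, 189068 and 20749 CPM. The last value is of the library that stood apart, and it still lay above all AG-haESC WT libraries. All 7 members were called and higher in SC embryos, where 38.8% of miRNAs were called, with a median of 4.07 against -0.28 (4.56 against -0.27 without that library). miR-302b-3p had 4.70 ± 0.77 (adjusted p = 0.0030), and without that library 5.17 ± 0.07. Without AG-haESC WT replicate 3, 4 members were called. The smallest was that of miR-302a-5p, 2.79 ± 0.39. In the same comparison 10 of 14 miR-290-295 miRNAs were lower in SC embryos (median -2.72), and 13 without that library (median -2.28). Also lower without overlap in SC embryos were the stroma or decidua (111 to 154 CPM against 1695 to 1776 CPM) and blood lists (41.4 to 128 CPM against 505 to 522 CPM). So was the endoderm list (1828 to 2315 CPM against 3054 to 3348 CPM). The trophoblast and endothelium lists overlapped. The part of the lists was not tested.

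O48 cells had less of the cluster than WT cells. Their share was 0.129%, 0.228% and 0.122%, against 0.498%, 0.506% and 0.470%. miR-302b-3p was at 930, 1552 and 860 CPM and had -1.38 ± 0.21 (adjusted p = 0.0019). The test called 3 of 7 members, all lower, the others being miR-302d-3p (-1.38 ± 0.23) and miR-302a-5p (-1.13 ± 0.26), where 22.8% of miRNAs were called. The libraries of the lines did not overlap for any of the 7, a check that was not made over all miRNAs. Without O48 replicate 2, 5 members were called. The 4 that missed the threshold were at most 73.4 CPM in any library. Of the miR-290-295 cluster, 8 miRNAs were higher in O48 and 0 lower. The trophoblast (2540 to 3399 CPM against 4917 to 5047 CPM), endoderm (1047 to 1157 CPM against 3054 to 3348 CPM) and blood (337 to 458 CPM against 505 to 522 CPM) lists were lower in O48 as well, and their part was not tested. Each line is 1 culture source, so a difference of the deletions and a difference between lines cannot be told apart.

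In E6.5 SC embryos, the loss of the DNMTs was compared on both backgrounds. On the WT background, the share of *Dnmt*-null SC embryos was 8.89%, 9.39% and 13.3%. With all WT libraries, 0 of 7 members were called by edgeR and 1 by DESeq2, 1 had an unadjusted p under 0.05, and 1.52% of miRNAs were called. Without WT replicate 3, 5 members were called, all lower, and miR-302b-3p had -1.30 ± 0.20 (adjusted p = 0.011) in place of -0.71 ± 0.61. The 1 library thus decided this comparison. In *Dnmt*-null SC embryos the endoderm list summed to 3551 to 4734 CPM and the stroma or decidua list to 206 to 312 CPM, above all WT libraries (1828 to 2315 CPM and 111 to 154 CPM), and their part was not tested. On the DKO background, the share was 19.9%, 21.3% and 19.4% in DKO and 14.0%, 15.8% and 14.2% in DKO;*Dnmt*-null SC embryos. All 7 members were called and lower, from -0.54 ± 0.10 (miR-302b-3p, adjusted p = 7.3e-05) to -1.16 ± 0.21 (miR-367-3p), where 26.5% of miRNAs were called and the median was -0.81 against -0.05. These groups are in separate count tables, and table and genotype cannot be told apart. The trophoblast miRNAs summed to 18667 to 24360 CPM in DKO;*Dnmt*-null and 14768 to 16665 CPM in DKO embryos, and the endoderm (2540 to 3505 CPM against 1592 to 1953 CPM), blood (83.4 to 107 CPM against 27.8 to 41.9 CPM) and stroma or decidua (220 to 304 CPM against 169 to 196 CPM) lists were also higher without overlap. The endothelium list was lower (200 to 245 CPM against 257 to 282 CPM). Their part was not tested. DKO against WT SC embryos gave 0 members called by edgeR and DESeq2 and 0 at an unadjusted p under 0.05, with 0.217% of miRNAs called, also without WT replicate 3.

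At E7.5, Mir-6KO;*Dnmt*-null SC embryos had shares of 8.47%, 18.5% and 15.03%, and controls 19.4%, 23.3% and 24.2%. The groups did not overlap in share, but 0 of 7 members were called by edgeR and 1 by DESeq2, and 4 had an unadjusted p under 0.05, with 3.25% of miRNAs called. miR-302b-3p had -0.87 ± 0.31 (adjusted p = 0.27). The endoderm list was higher without overlap (3852 to 4588 CPM against 1545 to 3538 CPM in controls), and its part was not tested. The *Dnmt*-null replicate 1 was the lowest in all 7 members, and without replicate 2 of that group 2 members were called. Between E6.5 DKO and E7.5 control SC embryos, both from DKO cells, 1 member was called, miR-302a-5p (0.51 ± 0.15, adjusted p = 0.044), where 26.4% of miRNAs were called, and 11 of 14 miR-290-295 miRNAs were lower at E7.5. The call lies at the fold threshold, and it was lost without E7.5 control replicate 2 or 3 or any of the E6.5 DKO libraries. The trophoblast list was lower without overlap at E7.5 (4332 to 12573 CPM, against 14768 to 16665 CPM at E6.5). The other cell type lists overlapped. The part of the lists was not tested.

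The plot of one cluster against the other shows both in all 91 libraries. AG-haESCs had much miR-290-295 and little of the members, and E7.5 Epi the reverse.

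**Figure D4:**
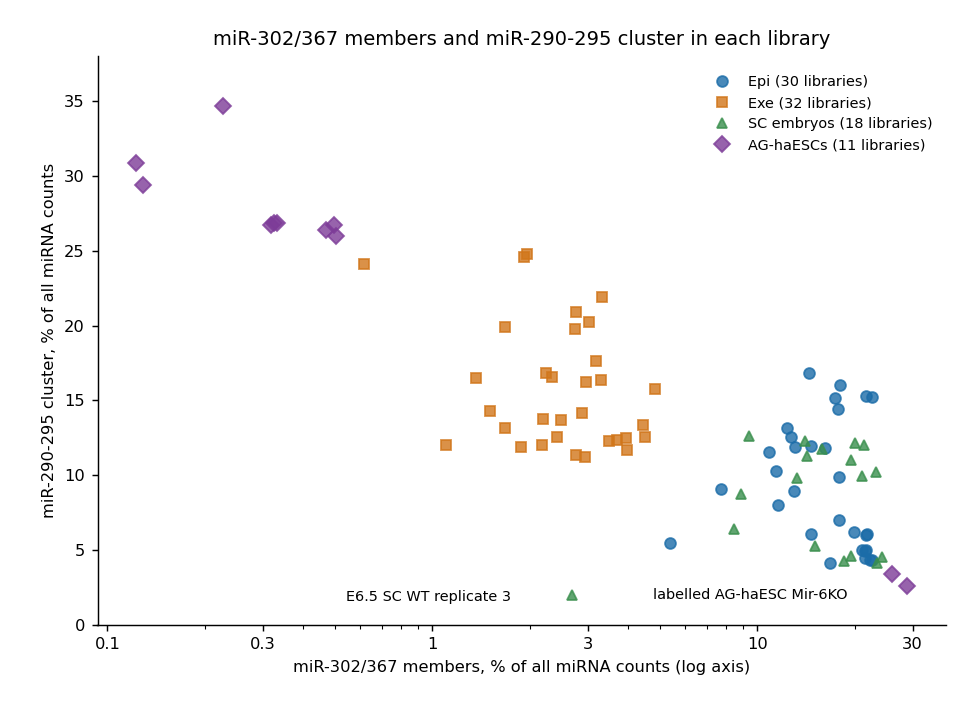
Share of miRNA counts on the 7 members (log axis, percent) against the summed share of the 14 miR-290-295 miRNAs (percent), with 1 point per library. AG-haESCs lie at upper left, Exe in between, and Epi and SC embryos at right, with E6.5 SC WT replicate 3 and both libraries labelled AG-haESC Mir-6KO apart from their groups.

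The members moved together but not in fixed proportion. Over the 16 natural groups, the mean log2 CPM of each correlated with the summed members at 0.871 (miR-367-3p) to 0.9997 (miR-302b-3p), and that sum contains it. The ratio of the arms varied most for miR-302a, whose 5p arm outnumbered the 3p arm in all 91 libraries. miR-302a-5p counts per miR-302a-3p count were 3.87, 3.96, 4.87 and 4.22 in control Epi at E6.5, and 2.09, 2.14 and 1.89 at E7.5. The stages did not overlap. At E7.5 the ratio was 4.48, 3.67 and 3.81 in *Dnmt*-null Epi, 2.67 to 3.31 in *Dnmt1*-KO and 2.30 to 4.06 in *Dnmt3a/3b*-DKO Epi, all above the controls. In AG-haESCs other than Mir-6KO it was 14.5 to 27.2, and miR-302a-5p there was 20.6 to 25.7% of the members' counts. E6.5 SC WT replicate 3 had a ratio of 29.9, above all others. These ratios were picked out after their values were seen and have no test.

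miR-302b had the opposite balance, with 0.00317 to 0.0269 5p counts per 3p count. The ratio fixed for a test was that between tissues in controls. The log2 ratio differed between Epi and Exe by 0.07 for miR-302a and -0.03 for miR-302b at E6.5, and by 0.23 and 0.27 at E7.5. Exact two-sided permutation tests over libraries gave adjusted p = 0.83, 0.83, 0.69 and 0.46 over the 4 tests, where the smallest p possible was 0.0286.

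**Figure D5:**
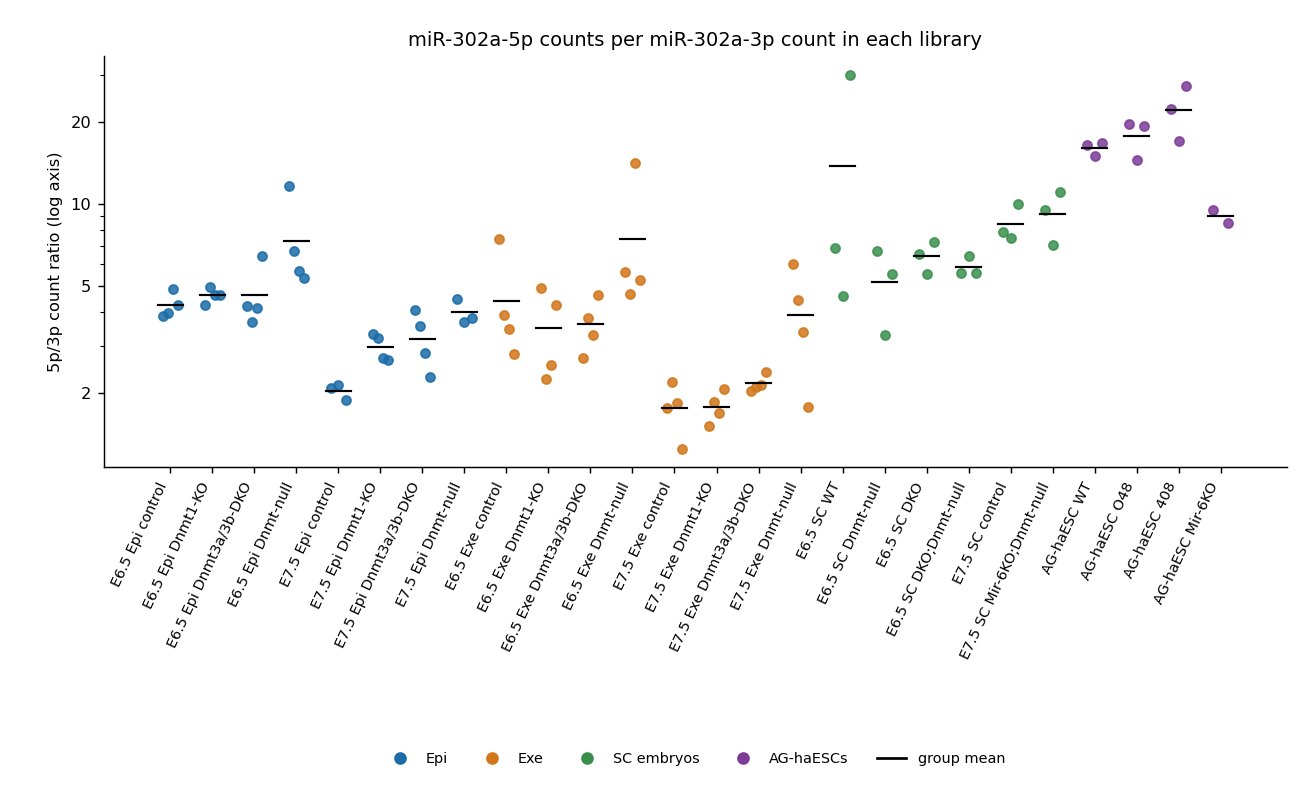
Counts of miR-302a-5p per count of miR-302a-3p in each library on a log axis, with a line at each group mean. Control Epi libraries lie at 3.87 to 4.87 at E6.5 and 1.89 to 2.14 at E7.5, and the highest values are those of AG-haESCs and of E6.5 SC WT replicate 3.

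Among 562 miRNAs with a mean of at least 10 CPM, those whose level over the 16 natural groups was most like the summed members were miR-302d-5p of the same cluster (Pearson r = 0.983), miR-488-3p (0.977), miR-363-3p (0.975), miR-23b-3p (0.971) and miR-384-5p (0.963). The least alike were miR-467d-5p (-0.953) and miR-669a-5p and miR-669p-5p (both -0.950, with identical counts), of the trophoblast cluster in *Sfmbt2*. The groups share libraries of 2 tissues, so these values mostly restate the tissue difference. Over all 25 groups of the main table miR-302d-5p kept 0.960, while miR-23b-3p dropped to 0.283.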

How the data were processed

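CAS-seq libraries of 91 mouse samples were analysed as deposited raw counts per mature miRNA. Per the study's methods, the authors used fastp 0.20.1 for trimming, then bowtie 1.2.1.1 for mapping, with GRCm38 as the genome and miRBase 21 as the annotation, allowing 2 bases fewer or more at the 3′ end. Molecular identifiers are not stated, so PCR copies may be counted. One group lies in a table of its own, and 2 columns of no sample were not used. The authors tested with DESeq2 1.30.1.

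Here, counts were tested in R 4.3.3 with edgeR 4.0.16 (TMM factors, filterByExpr with a minimum count of 10, robust quasi-likelihood F test). Calls needed a Benjamini-Hochberg adjusted p under 0.05 and an absolute log2 fold change over 0.5. Comparisons between tissues or stages of natural embryos, and the interactions, were fitted on all 62 natural embryo libraries in 16 groups. Their spread is therefore shared with mutant libraries of both tissues and stages. Other fits used the libraries of a stage and tissue, or of the material compared. Ratios of arms were tested by exact permutation (scipy 1.17.1). Alternatives were DESeq2 1.42.0, RLE scaling, TMM factors without the members, other count filters, a replicate block and leaving out each library.

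The members and lists were chosen with earlier results of these data known. Named besides members are the 5 miRNAs most and 3 least like them, the other arms, miRNAs with a shared seed and the most abundant members of each list. Data were also drawn with known 4-fold changes in 200 miRNAs. Of the changed miRNAs that passed the count filter, 68.4%, 53.4% and 41.8% were recovered. These values are for E6.5 Epi *Dnmt*-null (409 miRNAs drawn), E7.5 Epi *Dnmt*-null (652) and E6.5 Epi against Exe (658). False calls were 4.02%, 0.481% and 0.223% of the unchanged miRNAs that passed it. No 2 libraries of a group were alike within sampling noise (lowest chi-square per degree of freedom 4.20). Same-numbered libraries deviated together in all pairs, with correlations over 0.1, in 2 of 27 comparisons, E6.5 Epi *Dnmt*-null against control (0.13 to 0.30) and SC DKO against WT (0.17 to 0.30), and blocking left their counts of 7 and 0 called members as they were.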

Additional observations from a re-analysis of the deposited data

Results flagged for a closer look

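Of 140 values tested for a library far from the rest of its group, 9 were picked out, and chance alone would give about 1 in 20. In E6.5 Exe *Dnmt1*-KO, replicate 4 had 0.617% of counts on the members, with the nearest library at 2.77%, and miR-302b-3p at 5372 CPM, with the nearest at 24573 CPM. The same library had 6592 CPM on blood miRNAs and 4228 CPM on stroma miRNAs. In E6.5 Epi *Dnmt3a/3b*-DKO, replicate 4 was the highest, with 17.9% on the members (nearest 13.1%) and 3805 CPM of miR-302d-3p (nearest 2669 CPM). In E6.5 Exe *Dnmt3a/3b*-DKO, replicate 1 had 292 CPM of miR-302d-3p (nearest 551 CPM). In E6.5 Exe *Dnmt*-null, replicate 3 had a log2 ratio of miR-302a-5p to miR-302a-3p of 3.74 (nearest 2.46). In E7.5 Exe control, replicate 4 had a log2 ratio of miR-302b-5p to miR-302b-3p of -6.26 (nearest -6.57). In E7.5 Exe *Dnmt3a/3b*-DKO, replicate 3 had 42.7 CPM of miR-367-3p (nearest 7.52 CPM). In E7.5 Epi *Dnmt3a/3b*-DKO, replicate 1 had 184232 CPM of miR-302b-3p (nearest 191871 CPM).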

How the results depend on the processing

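No direction of a called member reversed under the alternatives run. The numbers of members called that moved are given by alternative, and the cause was not tested. With DESeq2, the count went from 1 to 2 for Exe between stages, 0 to 1 for E6.5 Epi *Dnmt3a/3b*-DKO, 2 to 6 for E6.5 *Dnmt*-null against *Dnmt1*-KO, 0 to 1 against *Dnmt3a/3b*-DKO, 3 to 5 for O48, 0 to 1 for both SC *Dnmt*-null comparisons that had no call, and 1 to 0 for DKO-derived SC embryos between stages. The latter also went to 0 with RLE scaling, both other filters and the replicate block. TMM factors without the members gave 0 for E7.5 Epi *Dnmt1*-KO and 1 for E7.5 Exe *Dnmt*-null. A mean count of at least 10 gave 0 for E7.5 Epi *Dnmt1*-KO, 1 for E6.5 *Dnmt*-null against *Dnmt3a/3b*-DKO and 1 for E7.5 SC embryos. Without a filter the counts were 2 for Exe between stages, 0 for E7.5 Epi *Dnmt1*-KO, 1 for E7.5 Exe *Dnmt1*-KO, 5 and 1 for E6.5 *Dnmt*-null against *Dnmt1*-KO and *Dnmt3a/3b*-DKO, 5 for O48, 1 for E7.5 SC embryos and 2 for the E6.5 tissue interaction. With the replicate block they were 3 for Exe between stages, 2 for E7.5 Epi *Dnmt1*-KO, 1 for E7.5 Exe *Dnmt1*-KO, 5 and 1 for E6.5 *Dnmt*-null against the other mutants, 1 for E7.5 *Dnmt*-null against *Dnmt1*-KO and 1 for the E6.5 tissue interaction, and miR-367-3p between tissues at E7.5 had an adjusted p of 0.056. At an unadjusted p under 0.05 and the same fold, the counts were 1 for Epi and 3 for Exe between stages, 2 for E6.5 Epi *Dnmt3a/3b*-DKO, 2 for E7.5 Exe *Dnmt1*-KO, 7 and 5 for E6.5 *Dnmt*-null against the other mutants, 5 for O48, 1 and 4 for the SC *Dnmt*-null comparisons at E6.5 and E7.5, and 5 and 1 for the E6.5 tissue and the *Dnmt*-null stage interactions.

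Leaving out 1 library at a time gave ranges of 2 to 5 for O48 (5 without O48 replicate 2), 0 to 5 for SC *Dnmt*-null against WT (5 without WT replicate 3), 4 to 7 for WT SC embryos against AG-haESCs, 0 to 2 for E7.5 SC embryos and 0 to 1 for DKO-derived SC embryos. In Epi they were 0 to 1 between stages, 0 to 3 for E7.5 *Dnmt1*-KO, 1 to 4 and 0 to 1 for E6.5 *Dnmt*-null and 0 to 4 and 1 to 5 for E7.5 *Dnmt*-null against *Dnmt1*-KO and *Dnmt3a/3b*-DKO. In Exe they were 0 to 3 between stages, 0 to 3 for E7.5 *Dnmt*-null and 0 to 1 for E7.5 *Dnmt1*-KO, and 0 to 1 for the E6.5 tissue interaction. The tissue difference kept 6 called members at E6.5 and 6 to 7 at E7.5, E6.5 and E7.5 Epi *Dnmt*-null against control 6 to 7 and 3 to 4, and DKO;*Dnmt*-null 6 to 7. Depth limits miR-367-3p most, and the share of the members depends on the other miRNAs counted, since without the 5 most abundant of them it was 24.0% in E6.5 and 29.5% in E7.5 control Epi.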

Other observations

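The AG-haESC 408 libraries, whose line the labels do not identify, had 2291, 2288 and 2298 CPM of miR-302b-3p and 0.319%, 0.331% and 0.326% of counts on the members. Both libraries labelled AG-haESC Mir-6KO had miR-302b-3p as their most abundant miRNA and a summed miR-290-295 level of 26183 and 34076 CPM, where AG-haESC WT had 259813 to 266868 CPM.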
